A study of Capra hircus with 12 samples.

Results

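The insulin-like growth factor (IGF) axis was followed here as 10 goat genes of the 28910 in the count tables: the ligands IGF1 and IGF2, the receptors IGF1R and IGF2R, the pappalysin protease PAPPA, and the binding proteins IGFBP2, IGFBP3, IGFBP4, IGFBP5 and IGFBP6. They were chosen by gene name. PAPPA, IGF1 and IGFBP3 had in addition been picked for their patterns in these same libraries, so their counts and fold changes are given as descriptions, with no test. The libraries came from cells of the temporomandibular joint (TMJ), the jaw joint, of female goats aged 6 to 9 months obtained from abattoirs, and the cells were used at passages 3 to 5. Cells of the superficial (SLC) and the middle (MLC) layer of the cartilage all received 10 ng of the inflammatory cytokine IL-1β for 1 h. In each layer 3 libraries had IL-1β alone and 3 had IL-1β and LOXL2, a lysyl oxidase that crosslinks collagen and elastin, delivered overnight by an adenovirus, which gave 4 groups and 12 libraries. An empty adenovirus is named for the flow cytometry of these cells, but no source says whether the IL-1β libraries for sequencing received it, so here LOXL2 and the adenovirus cannot be told apart, and no library without IL-1β was analysed here. No source says that the 3 libraries of a group came from separate animals, so the p-values measure the spread between these libraries, which may be technical.

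IGF1 and IGF2 are secreted growth factors that signal through IGF1R, a receptor tyrosine kinase, and in cartilage IGF1 drives proteoglycan synthesis. IGF2R, the cation-independent mannose 6-phosphate receptor, carries IGF2 and lysosomal enzymes to the lysosome and has no kinase of its own. The IGF binding proteins hold the ligands outside the cell, and PAPPA, a secreted metalloprotease, cuts IGFBP4 and IGFBP5 and so frees the bound ligand. The stanniocalcins STC1 and STC2 inhibit PAPPA.

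The libraries held 14158607 to 28931652 counts each. Levels are given as normalized counts, that is counts divided by each library's DESeq2 size factor, which compares libraries but not genes, since no exon lengths were at hand. Counts on the goat LOXL2 gene were no higher where LOXL2 was labelled. This gene had 11708 ± 165 normalized counts (SD, n = 3) with IL-1β and 9684 ± 999 with LOXL2 in SLC, and 15258 ± 1003 and 14599.6 ± 731 in MLC. The study's methods do not give the species or sequence of the delivered LOXL2. Whether its reads would be counted on the goat gene is therefore not known. The directions below rest on the labels. SLC library 1 with LOXL2 stood apart from libraries 2 and 3, with a chi-square per degree of freedom over genes of 159 and 58.1 against 29.2 between those, and for 9 of the 10 genes it was the nearest of the 3 to the IL-1β mean. MLC library 1 with LOXL2 did so to a lesser extent, with 15.2 and 33.9 against 5.81, and was the nearest for 6 of the 10. Most cartilage markers were higher in MLC, with COL2A1 at a mean of 309.8 normalized counts in MLC and 0 in SLC with IL-1β, and ACAN at 7451 and 894. COL11A1 (22229 in MLC and 23200 in SLC) and MATN3 (7.62 and 6.63) were close between the layers. The 8 chondrocyte markers, mostly COL11A1, summed to 24487 to 26914 normalized counts per library in SLC with IL-1β and 13866 to 24313 with LOXL2, which did not overlap, and to 32884 to 35698 and 27597 to 35019 in MLC, which did. The lower SLC sum was mostly that of COL11A1 (mean 15966 with LOXL2), while COMP was higher with LOXL2 (1168 and 1500). The 5 osteoblast markers, mostly SPP1, summed to 279 to 405 in SLC and 1866 to 1982 in MLC. ALPL of this list went the other way, with means of 18.4 in SLC and 8.83 in MLC with IL-1β. The 5 superficial layer markers, mostly COL1A1 and COL1A2, summed to 1087175 to 1128651 in SLC and 917545 to 971708 in MLC with IL-1β, but TNC (mean 20561 and 45017) and POSTN (1787 and 4241) were higher in MLC, and PRG4, the lubricin gene, was at 82.7 and 111. Of the macrophage list, 4 of 5 markers were in the table and summed to 1030.5 to 2618 over all libraries, mostly CD14, with CD68 present and the leukocyte marker PTPRC at 1.93 or less. The 4 epithelial markers summed to 7.52 to 37.1 in SLC and 133 to 277 in MLC, with KRT5 at 0. In MLC nearly all of this was KRT14, while EPCAM was the largest part in SLC and lower in MLC (mean 11.1 and 2.04 with IL-1β). The 4 endothelial markers summed to 27.8 to 48.7 and 61.5 to 79.4, mostly VWF, with CDH5 at 1.70 or less. PECAM1 was higher in SLC (6.96 and 2.52 with IL-1β). The 3 muscle markers in the table summed to 13.5 or less and the 2 adipocyte markers to 21.0 to 68.1. The part of these marker differences in the layer and LOXL2 results was not tested.

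IGF1 was the member whose level depended most on the layer. IGF1 had 1569, 1736 and 1482 normalized counts in the 3 SLC libraries with IL-1β alone and 1247, 883 and 912 in those with LOXL2 added. In MLC it had 65.6, 69.4 and 35.9 with IL-1β alone and 52.1, 49.0 and 52.4 with LOXL2. The SLC libraries were thus all far above the MLC libraries, and within SLC the LOXL2 libraries lay below the IL-1β libraries without overlap. The mean was 1595 ± 129 (SD, n = 3) in SLC with IL-1β and 1014 ± 202 with LOXL2, a log2 fold change of -0.65 or 1.57-fold lower, and 57.0 ± 18.4 and 51.2 ± 1.90 in MLC, where the log2 fold change was -0.15 and the groups overlapped. MLC was 27.6-fold lower than SLC with IL-1β alone and 19.6-fold lower with LOXL2. In bulk libraries such as these, fewer cells that express a gene and less of its RNA per cell cannot be told apart.

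IGF2, the second ligand, was barely detected. The raw counts were 12, 12 and 7 in SLC with IL-1β, 7, 2 and 5 in SLC with LOXL2, 1, 3 and 2 in MLC with IL-1β and 0, 4 and 0 in MLC with LOXL2. The gene did not pass the filter on low counts in any comparison with all its libraries. In normalized counts the SLC groups did not overlap, at 11.7, 10.0 and 6.49 against 5.96, 1.37 and 4.22, and a two-sided exact permutation test gave p = 0.1, the smallest that 3 against 3 libraries allow. In MLC the exact permutation p was 0.8, and at these counts a difference was not detectable.

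The receptors were well covered in every library and lay lower with LOXL2 in both layers. IGF1R had 9541, 10301 and 9064 normalized counts in the 3 SLC libraries with IL-1β alone and 7849.6, 5208 and 5912 in those with LOXL2 added. Its MLC values were 7332, 7031 and 7427 with IL-1β alone and 6617, 5807 and 5384 with LOXL2. The groups did not overlap in either layer. IGF2R had 11337, 10493 and 9582 normalized counts in the 3 SLC libraries with IL-1β alone and 9026, 4900.1 and 6423 in those with LOXL2 added. The MLC libraries had 7849, 8038 and 8203 with IL-1β and 7468, 5939.6 and 5024 with LOXL2. Here too every LOXL2 library lay below every IL-1β library of its layer. In MLC both receptors fell, IGF1R by 0.29 on the log2 scale (SE 0.092, adjusted p = 0.0413) and IGF2R by 0.39 (SE 0.12, adjusted p = 0.0404), by the quasi-likelihood test of edgeR, with p-values adjusted over all genes by the Benjamini-Hochberg method. In SLC the log2 fold changes were -0.60 for IGF1R (SE 0.17, edgeR adjusted p = 0.0706) and -0.62 for IGF2R (SE 0.22, adjusted p = 0.0821), and did not pass the threshold of 0.05. SLC library 1 was the highest of the LOXL2 libraries for both receptors, and without it the values were -0.80 (edgeR adjusted p = 7.44e-05) and -0.89 (adjusted p = 0.000141).

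PAPPA, the protease of the axis, was a low-count gene that was lower with LOXL2 in 5 of the 6 LOXL2 libraries than in any IL-1β library of the same layer. The raw counts in SLC were 31, 35 and 22 with IL-1β and 33, 6 and 2 with LOXL2. In MLC they were 15, 12 and 14 and 4, 4 and 1. The exception was SLC library 1, whose 28.1 normalized counts lay inside the IL-1β range of 20.4 to 30.2, while libraries 2 and 3 had 4.12 and 1.69. The log2 fold change in SLC was -1.26 with all libraries and -3.10 without library 1, and over the 6 fits that left out a library it ran from -3.10 to -0.76. In MLC the groups did not overlap, at 19.7, 14.6 and 17.3 normalized counts with IL-1β and 3.86, 5.30 and 1.01 with LOXL2, and the log2 fold change was -2.35, or 5.11-fold lower, with a leave-one-out range of -2.74 to -1.91. Between the layers with IL-1β alone the MLC libraries had a log2 fold change of -0.61, with the highest MLC library just under the lowest SLC library (19.7 against 20.4 normalized counts). With LOXL2 the gene was too low for that comparison. These fold changes rest on 88 and 41 counts in all in the SLC groups and 41 and 9 in the MLC groups. In both layers PAPPA needed the IL-1β libraries, where it is high, to pass the filter for the LOXL2 comparison. A decrease was thus favoured by the pick and by the filter, so non-overlap and the leave-one-out ranges only describe these libraries.

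The PAPPA inhibitors lay apart between the layers, STC1 higher in SLC and STC2 in MLC, and did not pass the test for LOXL2 where it could be made. STC1 had 176, 231 and 177 normalized counts in the 3 SLC libraries with IL-1β alone and 52.8, 157 and 155 in those with LOXL2 added. In MLC it had 5.25, 13.4 and 9.90 with IL-1β alone and 8.69, 7.94 and 15.1 with LOXL2. SLC library 1 was the lowest of the LOXL2 libraries, and the log2 fold change in SLC was -0.68 (SE 0.37, edgeR adjusted p = 0.194). All MLC libraries lay below all SLC libraries, with a log2 fold change of -4.31 under IL-1β alone and -3.48 with LOXL2. The gene, with 4 to 15 raw counts per MLC library, entered that comparison through SLC alone, where it is high, so no test is given. In MLC alone STC1 was too low for the LOXL2 test. STC2 had 649, 718 and 705 normalized counts in the 3 SLC libraries with IL-1β alone and 391, 589.8 and 607 in those with LOXL2 added. Its MLC values were 824, 1161 and 941 with IL-1β alone and 984, 935 and 839 with LOXL2. Every MLC library lay above every SLC library. STC2 was higher in MLC by 0.52 on the log2 scale with IL-1β (SE 0.10, edgeR adjusted p = 0.000812) and by 0.81 with LOXL2 (SE 0.18, adjusted p = 0.0212). Its LOXL2 log2 fold changes were -0.38 in SLC (edgeR adjusted p = 0.132) and -0.089 in MLC (adjusted p = 0.624). In SLC the LOXL2 libraries lay below the IL-1β libraries without overlap for both STC1 and STC2. Groups did not overlap there for 49.0% of all genes in either direction, and no gene of the 14103 tested passed by edgeR. PAPPA2, the related protease that cuts IGFBP3 and IGFBP5, had 1 to 12 raw counts per library and passed the filter in none of the comparisons.

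Among the binding proteins, IGFBP2 and IGFBP6 were higher with LOXL2 in both layers. IGFBP2 binds both ligands. IGFBP2 had 6941, 6376 and 7113 normalized counts in the 3 SLC libraries with IL-1β alone and 7537, 12553 and 11717 in those with LOXL2 added. The MLC libraries had 2821, 3329 and 2819 with IL-1β and 3494, 5722 and 5797 with LOXL2. The LOXL2 libraries were all above the IL-1β libraries of their layer, with library 1 the closest to them in each layer. IGFBP2 rose in MLC 1.67-fold (log2 fold change 0.74, SE 0.16, adjusted p = 0.020 by edgeR), and in SLC the fold was 1.56 (log2 fold change 0.64, SE 0.19, adjusted p = 0.0706), short of the threshold. IGFBP6 binds IGF2 in preference to IGF1. IGFBP6 had 27499, 29621 and 31019 normalized counts in the 3 SLC libraries with IL-1β alone and 34476, 53245 and 42959 in those with LOXL2 added. In MLC it had 22042, 22735 and 21338 with IL-1β alone and 24442, 26894 and 32366 with LOXL2. The groups again did not overlap. IGFBP6 rose in MLC (log2 fold change 0.34, SE 0.11, adjusted p = 0.0409 by edgeR), and its SLC value was 0.57 (SE 0.17, adjusted p = 0.0706). Without SLC library 1 with LOXL2, the SLC log2 fold changes were 0.83 for IGFBP2 (edgeR adjusted p = 4.46e-05) and 0.71 for IGFBP6 (adjusted p = 0.000412).

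IGFBP3, IGFBP4 and IGFBP5 lay lower with LOXL2 in SLC, while the MLC values were smaller or near 0. IGFBP3 is the main carrier of IGFs in blood. IGFBP3 had 114, 122 and 134 normalized counts in the 3 SLC libraries with IL-1β alone and 64.7, 50.1 and 60.8 in those with LOXL2 added. Its MLC values were 227, 179 and 188 with IL-1β alone and 191, 158 and 150.2 with LOXL2. In SLC every LOXL2 library was below every IL-1β library, at 2.11-fold lower in the fit (log2 fold change -1.07), with library 1 the highest of the LOXL2 libraries. In MLC the groups overlapped and the log2 fold change was -0.25. IGFBP4 is the best known substrate of PAPPA. IGFBP4 had 5216, 6249 and 5565 normalized counts in the 3 SLC libraries with IL-1β alone and 3399, 4659 and 4884 in those with LOXL2 added. The MLC libraries had 1228, 1348 and 1183 with IL-1β and 1300.1, 1307 and 1326 with LOXL2. The SLC groups did not overlap and library 1 was here the lowest, with log2 fold change -0.39, SE 0.16, adjusted p = 0.0983 by edgeR, whereas the MLC groups overlapped, with a value of 0.063 (SE 0.091, adjusted p = 0.635). IGFBP5 binds to the extracellular matrix as well as to IGFs. IGFBP5 had 9409, 10965 and 10486 normalized counts in the 3 SLC libraries with IL-1β alone and 9169, 7843 and 8163 in those with LOXL2 added. In MLC it had 5595, 4455 and 5553 with IL-1β alone and 5344, 5158 and 5118 with LOXL2. SLC again showed no overlap, with log2 fold change -0.29, SE 0.12, adjusted p = 0.101 by edgeR, and MLC a log2 fold change of -0.0011 (SE 0.10, adjusted p = 0.995), its groups overlapping. Without SLC library 1 with LOXL2 the SLC values of both passed the threshold, at -0.25 for IGFBP4 (edgeR adjusted p = 0.0429) and -0.36 for IGFBP5 (adjusted p = 0.00760).

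**Figure D1:**
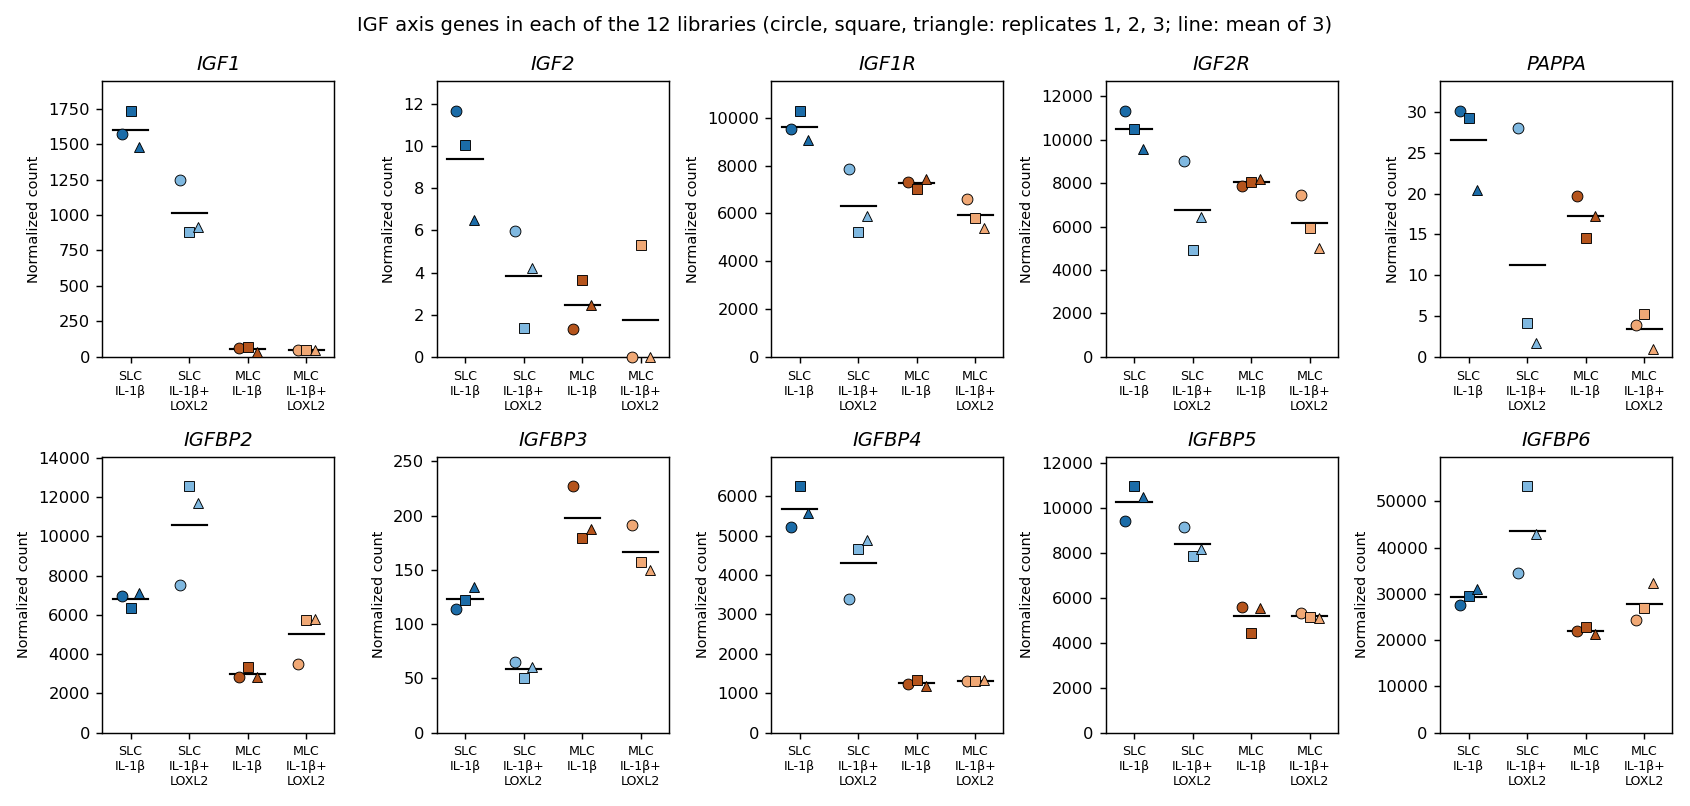
Normalized counts (y axis, linear, from 0, with its own range for each gene) of the 10 genes in each of the 12 libraries, by group on the x axis, with circles, squares and triangles for libraries 1, 2 and 3 and a line at each group mean. IGF1 sits between 1482 and 1736 in SLC with IL-1β and below 70 in MLC, and SLC library 1 with LOXL2 lies with the IL-1β libraries for PAPPA.

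In counts, of the 7 genes that were not picked for a pattern, 6 passed the filter and all of these had at least 936 counts in every library. In MLC 4 of the 6 changed with LOXL2, IGFBP2 and IGFBP6 upward and IGF1R and IGF2R downward, against 21.6% of all 13664 genes tested (9.81% higher and 11.8% lower). In SLC none of the 6 passed, and neither did any of the 14103 genes tested by edgeR (0%). At an unadjusted p under 0.05 all 6 passed in SLC, 2 higher and 4 lower, as did 43.3% of all genes (23.1% higher and 20.2% lower), and all 6 had groups that did not overlap, as did 49.0%. No such share is given here for MLC or between the layers, so non-overlap there only describes the genes named. DESeq2's Wald test called 4 of the 6 in SLC, and 30% of all genes (IGF1R, adjusted p = 0.0129, IGF2R, 0.0338, IGFBP2, 0.0166, and IGFBP6, 0.0158). Without SLC library 1 with LOXL2 edgeR called all 6, in a fit that called 61.7% of all genes. IGF2 passed the filter there only through the IL-1β libraries, where it is high. The LOXL2 libraries left had 2 and 5 raw counts, so its call is not read as a result. The MLC calls depended on single libraries. All 4 were held without LOXL2 library 1, where 48.1% of all genes were called. IGFBP2 alone was held without IL-1β library 2 (edgeR adjusted p = 0.0493, 5.95% of all genes) or LOXL2 library 3 (adjusted p = 0.0470, 3.43%). No member and 0% of all genes were called without IL-1β library 1, IL-1β library 3 or LOXL2 library 2, where the adjusted p of IGFBP2 was 0.0782, 0.0915 and 0.108. When all 12 libraries shared one estimate of the spread, 5 of the 6 passed in SLC, all but IGFBP5, with 41.0% of all genes, and none in MLC, as of all genes (0%), where IGFBP2 had an edgeR adjusted p of 0.174.

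Whether LOXL2 acted differently in the layers was tested as the interaction, the MLC minus the SLC log2 fold change. No gene of the 14534 tested passed by edgeR (0%), and 328 had an unadjusted p under 0.05 (2.26%). IGFBP4 was 1 of these, with a difference of 0.44 (SE 0.18) and an edgeR adjusted p of 0.959. The differences were 0.30 (SE 0.19) for IGF1R, 0.22 (SE 0.27) for IGF2R, 0.085 (SE 0.29) for IGFBP2, 0.28 (SE 0.15) for IGFBP5 and -0.25 (SE 0.21) for IGFBP6, with edgeR adjusted p-values of 0.959, 0.959, 0.973, 0.959 and 0.959. An effect that passed in MLC and not in SLC was therefore not shown to differ between the layers. For the picked genes the differences were 0.49 for IGF1, 0.81 for IGFBP3 and -1.11 for PAPPA, and the last turned to 0.71 without SLC library 1 with LOXL2.

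**Figure D2:**
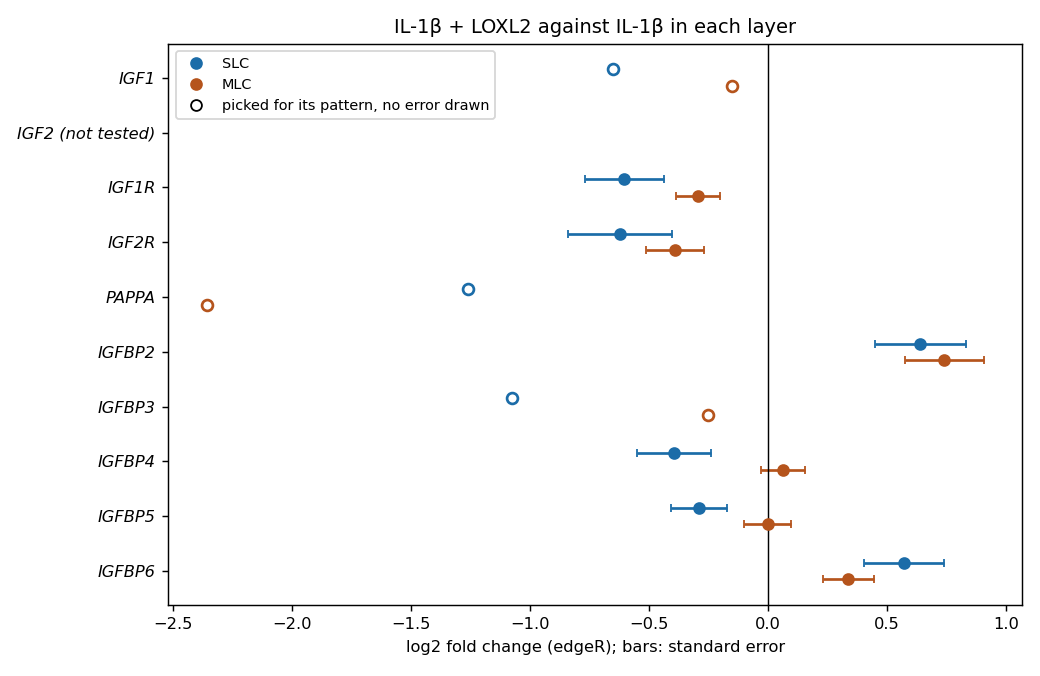
Log2 fold change of IL-1β + LOXL2 over IL-1β (x axis) for each gene (y axis) in SLC and MLC from the edgeR fits, with bars of 1 SE for the genes that were not picked for a pattern and open points alone for PAPPA, IGF1 and IGFBP3. IGFBP2 and IGFBP6 lie to the right of 0 and both receptors to the left in both layers, and IGF2 was not tested.

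The LOXL2 fold changes of all genes followed the length of the gene on the chromosome. In SLC the median log2 fold change was 0.37 for genes spanning under 10 kb, 0.086 for 10 to 30 kb, -0.21 for 30 to 100 kb and -0.43 for over 100 kb, and in MLC it was 0.23, 0.061, -0.15 and -0.30. The members span 3.63 kb (IGFBP6) to 305 kb (IGF1R), in the ARS1.2 assembly. IGFBP6 lies on chromosome 5 at 26609942 to 26613572 and rose in MLC, and the long genes IGF1R (chromosome 21, 7038506 to 7343433), PAPPA (chromosome 8, 105068334 to 105327452) and IGF2R (chromosome 9, 83501097 to 83604791) lay on the negative side, as the long genes did in general. IGFBP2 and IGFBP5 are neighbours on chromosome 2, at 31149536 to 31178739 and 31117838 to 31140752 with 8783 bases between them, and had opposite signs in SLC although their spans are close, 29.2 and 22.9 kb.

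With each library's trend of expression on gene span removed, the log2 fold change of IGF1R was -0.17 in SLC (edgeR adjusted p = 0.159) and 0.0066 in MLC (adjusted p = 0.956). IGF2R had -0.28 and -0.14 (adjusted p = 0.153 and 0.264 by edgeR). IGFBP6 had 0.26 and 0.14 (edgeR adjusted p = 0.111 and 0.213). The receptor and IGFBP6 calls in MLC were thus not held once the trend was taken out, when 14.7% of all genes were called. IGFBP2 kept its size, 0.72 in SLC (edgeR adjusted p = 0.0733) and 0.79 in MLC, where it remained past the threshold (adjusted p = 0.0204). IGFBP3, a short gene of 6.84 kb on chromosome 4 (44058187 to 44065021), lay opposite to the trend and moved to -1.30 in SLC. IGFBP4, on chromosome 19 (40320361 to 40330549, 10.2 kb), moved to -0.56 in SLC (edgeR adjusted p = 0.0733) and -0.048 in MLC (adjusted p = 0.704). PAPPA had -0.90 in SLC and -2.07 in MLC, and IGF1, on chromosome 5 (64862983 to 64943172), -0.32 and 0.082. The cause of the span trend was not tested.

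**Figure D3:**
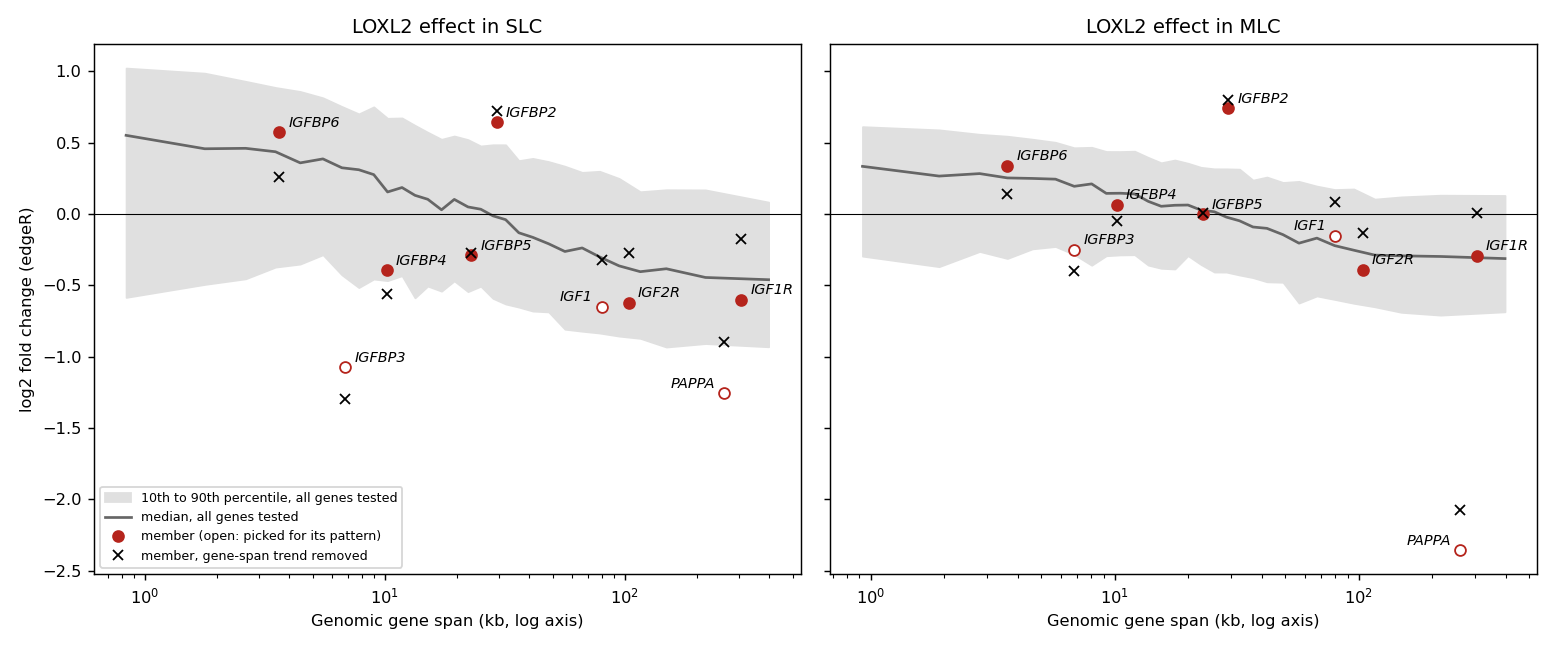
Log2 fold change with LOXL2 (y axis) against genomic span in kb (x axis, log scale) in SLC and MLC, with the median of all genes in span bins as a line, the 10th to 90th percentile shaded, the members as labelled points, open where picked for a pattern, and crosses for their values with the span trend removed. IGF1R sits near the line in MLC, and IGFBP2 above it in both layers.

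Under IL-1β alone the layers differed for all 6 tested genes that were not picked for a pattern. MLC was compared with SLC, and since these libraries also enter the LOXL2 comparisons, the results are not independent. IGFBP4 was 4.47-fold lower in MLC (log2 fold change -2.16, SE 0.078, adjusted p = 5.95e-11), IGFBP2 2.25-fold lower (log2 fold change -1.17, SE 0.075, adjusted p = 1.62e-08) and IGFBP5 1.95-fold lower (log2 fold change -0.96, SE 0.086, adjusted p = 4.99e-07), all by edgeR. The other members that passed were lower by less. IGF1R had -0.39 (SE 0.063, edgeR adjusted p = 0.000149), IGF2R -0.36 (SE 0.067, adjusted p = 0.000457) and IGFBP6 -0.40 (SE 0.066, adjusted p = 0.000187). All 6 tested genes that were not picked were thus lower in MLC, against 22.7% of the 13965 genes tested, with 46.9% called in either direction. IGFBP3 was the exception in direction among the members, 1.62-fold higher in MLC, with mean normalized counts of 123 ± 10.4 in SLC and 198 ± 25.5 in MLC (SD, n = 3). When all 12 libraries shared one spread, IGF2R (edgeR adjusted p = 0.186) and IGFBP6 (adjusted p = 0.0681) did not pass, and 25.6% of all genes did, while all 6 passed in each of the 6 fits that left out a library. Layer and anything else that differed between the cell preparations cannot be told apart.

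With LOXL2 the same comparison left IGFBP4 3.26-fold lower in MLC (log2 fold change -1.71, SE 0.15, adjusted p = 0.000555 by edgeR) and IGFBP5 1.60-fold lower (log2 fold change -0.68, SE 0.12, adjusted p = 0.00697). IGFBP2 was 2.10-fold lower (log2 fold change -1.07, SE 0.26, adjusted p = 0.0286 by edgeR). These 3 of 6 genes stood against 6.83% of the 14085 genes tested called lower and 16.1% called in either direction. IGFBP6 had a log2 fold change of -0.63 (SE 0.19, edgeR adjusted p = 0.0609). With the replicate number as a block it had -0.62 (edgeR adjusted p = 0.0136), and its adjusted p ran from 0.00540 to 0.209 over all its alternatives. That block assumes a pairing read from these same libraries, which no source states. The receptors had -0.084 for IGF1R (edgeR adjusted p = 0.799) and -0.14 for IGF2R (adjusted p = 0.759), with overlapping groups. IGFBP3 was 2.86-fold higher in MLC, with means of 58.5 ± 7.53 and 166 ± 21.8 normalized counts (SD, n = 3). Without SLC library 1 with LOXL2, IGFBP2 had an edgeR adjusted p of 0.00154 and IGFBP6 of 0.00540 (32.9% of all genes called), while leaving out any of the other 5 libraries took IGFBP2 past 0.05, to at most 0.113. Without MLC library 2 with LOXL2 only IGFBP4 of the 6 passed (edgeR adjusted p = 0.00704, with 7.92% of all genes), and IGFBP5 had 0.0535. Without SLC library 1 the receptor values turned to 0.11 for IGF1R and 0.13 for IGF2R.

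**Figure D4:**
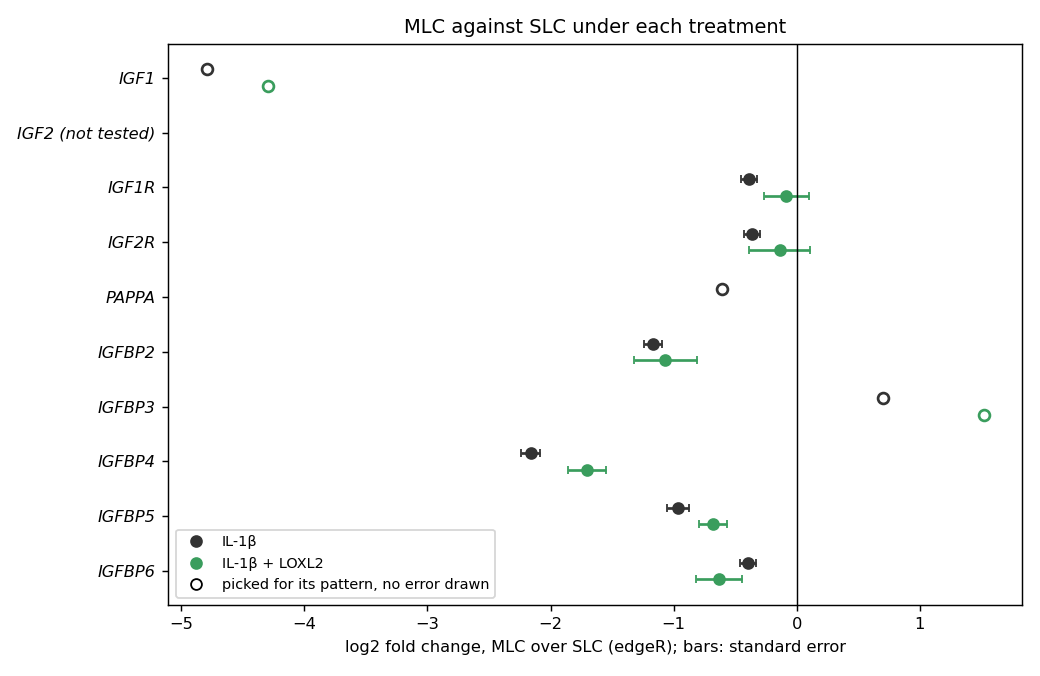
Log2 fold change of MLC over SLC (x axis) for each gene (y axis), with IL-1β alone and with IL-1β + LOXL2, from the edgeR fits, with bars of 1 SE for the genes that were not picked for a pattern and open points alone for the others. IGF1 lies farthest to the left at -4.79 and -4.30, and IGFBP3 is the gene to the right of 0.

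The other genes of the pathway were taken from a list of 43 names, receptors, adaptors, kinases, IGF mRNA-binding proteins and proteases, of which 42 were in the tables. In MLC 17 of the 36 tested changed with LOXL2, 1 upward and 16 downward, against 9.81% and 11.8% of all genes, and the list's median log2 fold change was -0.30 against 0.0079 over all genes. The largest decreases were those of PIK3CB and PIK3CA, catalytic subunits of phosphoinositide 3-kinase, and of PDPK1, the kinase that activates AKT. By edgeR they had -0.71 (SE 0.19, adjusted p = 0.0282), -0.68 (SE 0.12, adjusted p = 0.0190) and -0.57 (SE 0.16, adjusted p = 0.0298). The gene that rose was GNPTG, a subunit of the enzyme that makes the mannose 6-phosphate tag, at 0.41 (SE 0.13, adjusted p = 0.0463). The list is of long genes, with a median span of 73.5 kb against 21.2 kb over all genes tested. With the span trend removed 6 of the 36 passed in MLC by edgeR, close to the 14.7% of all genes, and the list's median was -0.11. They were PIK3CA and FOXO3 downward and IGFBP7, GRB2, GRB10 and HTRA1 upward. These names came from the result and not from the naming rule, except PIK3CA and IGFBP7. In SLC none of 38 passed by edgeR, the median was -0.38, and 22 had an unadjusted p under 0.05 (3 higher and 19 lower), against 43.3% of all genes. DESeq2 called 20, against 30% of all genes, and edgeR without LOXL2 library 1 called 26, against 61.7%. The MLC count ran from 0 (without IL-1β library 1, IL-1β library 3 or LOXL2 library 2) through 2 (without LOXL2 library 3) and 3 (without IL-1β library 2) to 23 (without LOXL2 library 1, against 48.1% of all genes). IGFBP7, a secreted relative of the binding proteins with low affinity for IGFs, had 1984 ± 163 and 2475 ± 323 normalized counts in SLC and 2043 ± 204 and 2495 ± 149 in MLC (SD, n = 3), and the log2 fold changes were 0.32 (SE 0.13, adjusted p = 0.10) and 0.29 (SE 0.099, adjusted p = 0.0550) by edgeR.

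Between the layers with IL-1β alone 23 of 38 pathway genes passed by edgeR, 9 higher and 14 lower in MLC, against 24.2% and 22.7% of all genes, and the list's median was -0.054 against -0.0069 over all genes. The IGF2 mRNA-binding proteins lay on opposite sides. IGF2BP1 had 7.78, 10.9 and 9.27 normalized counts in SLC and 60.4, 95 and 70.5 in MLC, and IGF2BP3 51.6, 78.5 and 71.4 and 6.56, 3.65 and 2.47. IGF2BP1, with 8 to 13 raw counts per SLC library, had a log2 fold change of 3.01. It needed the MLC libraries, where it is high, to pass the filter, so no test is given for it. IGF2BP3, with 2 to 5 raw counts per MLC library, had a log2 fold change of -3.95. Like STC1, given above, it entered the comparison through SLC alone, so of the 14 lower genes these 2 had to differ, and no test is given for them. INSR, the insulin receptor, was lower at -1.0 (SE 0.086, adjusted p = 3.69e-07), and ADAM12, a protease that cuts IGFBP3 and IGFBP5, and GRB10, an adaptor that restrains IGF1R, were higher at 0.89 (SE 0.10, adjusted p = 6.83e-06) and 0.66 (SE 0.068, adjusted p = 1.81e-06). With LOXL2 12 of 39 passed, 6 each way, against 9.27% higher and 6.83% lower of all genes, and the median was 0.023 against -0.031. INSR had -0.93 (SE 0.16, adjusted p = 0.00802) and ADAM12 1.18 (SE 0.24, adjusted p = 0.0144) by edgeR. Others of the 12 needed the layer where they are high to pass the filter and have no test here. They were IGF2BP1 (log2 fold change 3.02, 6 to 15 raw counts per SLC library), STC1, IGF2BP3 with a log2 fold change of -2.54, and CILP. CILP, a cartilage matrix protein that binds IGF1, had 2, 1 and 5 raw counts in SLC and 11, 8 and 16 in MLC. IGFBP7 had 0.062 with IL-1β (edgeR adjusted p = 0.552). The count of 12 fell to 2 without MLC library 2 with LOXL2, to 4 without MLC library 3 or SLC library 3, and to 5 without MLC library 1, in fits that called 7.92% to 9.78% of all genes. None of 39 passed the interaction test by edgeR, 1 of them with an unadjusted p under 0.05.

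For the picked genes, the genes whose log2 normalized counts followed theirs most closely over the 12 libraries were named by Pearson's r, as a description, since the 12 points fall into 4 groups of shared layer and treatment. For IGF1 they were GABRA4 (r = 0.994), ADARB1 (0.992) and SFRP1 (0.991). All had higher counts in SLC, and the group means of SFRP1 were 3559 (IL-1β) and 3490.1 (LOXL2) in SLC but 624 and 619 in MLC. GABRA4 was a low-count gene, with means of 28.3 and 21.0 in SLC and 0 in both MLC groups, so its r reflects mainly the layer. For PAPPA they were ZFYVE26 (r = 0.963), KATNAL1 (0.960) and DVL3 (0.950), which had lower means with LOXL2 in both layers, for example 1090.4 and 792 for ZFYVE26 in SLC and 970.2 and 719 in MLC. For IGFBP3 they were ABL1 (r = 0.979), MBTPS1 (0.977) and ADAMTS1 (0.976). ADAMTS1, a secreted protease, had a mean of 898 in SLC with IL-1β and 424 with LOXL2, and of 2133 and 1521 in MLC, lower with LOXL2 and higher in MLC as IGFBP3 was.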

How the data were processed

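Total RNA of 12 goat TMJ cell libraries was sequenced, 3 in each of 4 groups. The deposited values are raw counts per gene, which the authors made by alignment to the goat assembly ARS1.2 and counting with featureCounts; the submitters' processing notes name HISAT2, and versions, strand and multi-mapping settings are not given in the sources used here. Genes with near-identical copies are therefore uncertain. The table held 28910 gene rows, 1783 of which share a name, and 28884 symbols were matched to RefSeq for spans and positions.

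The test was the quasi-likelihood test of edgeR 4.0.16, run in R 4.3.3 (filterByExpr with a minimum count of 10, TMM, Benjamini-Hochberg adjustment over all genes kept, threshold 0.05). Each pairwise comparison used its own 6 libraries and the interaction all 12. SE is that of the log2 fold change. Normalized counts used DESeq2 1.42.0 size factors, and the likeness between genes a pseudocount of 1 on the log2 scale. The scripts were tested on simulated data. The members, lists and tests were chosen with earlier results of these data known. Text names all 10 members, STC1, STC2, PAPPA2 and IGFBP7, the 3 largest called increases and decreases of the pathway list in each comparison, and the 3 genes most like each picked gene. The alternatives were DESeq2 size factors in edgeR, no filter, a minimum of 10 counts in all libraries of the fit, the Wald test of DESeq2 (that of the study's methods), the replicate number as a block, the lowess trend on gene span removed, all 12 libraries in 1 fit, and each library left out. Replicate numbers come from the sample titles and no source ties them to an animal or day. With LOXL2, the deviations of same-numbered SLC and MLC libraries from their group means correlated at 0.61, 0.21 and 0.17 across genes. SLC library 2 correlated best with MLC library 3 (0.45). Library 1 with LOXL2 stood apart in both layers. These values therefore cannot tell a pairing by number from a likeness of those libraries, and the block is given only as an alternative.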

Additional observations from a re-analysis of the deposited data

How the results depend on the processing

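Of 420 values of tested members recomputed under the alternatives, 352 kept their direction and their side of the threshold, 21 passed only under the alternative, 32 passed only as reported and 15 turned sign. PAPPA, IGF1 and IGFBP3, which have no test, turned sign in 3 of 194 values: IGF1 in MLC was 0.082 with the span trend removed and 0.017 without IL-1β library 2, and the interaction of PAPPA 0.71 without SLC library 1 with LOXL2. In SLC with LOXL2 0 members passed, against 4 with DESeq2's Wald test, 5 with all 12 libraries in 1 fit and 0 to 7 with a library left out, and of the pathway list 0 against 20, 22 and 0 to 26. These fits called 30%, 41.0% and up to 61.7% of all genes. The count of 7 includes IGF2, which entered that fit only through the IL-1β libraries, where it is high. In MLC 4 members passed, against 1 with the span trend removed, 0 with all 12 libraries and 0 to 4 with a library left out. Of the pathway list 17 passed, against 6, 0 and 0 to 23. Of all genes 21.6% were called, against 14.7%, 0% and 0% to 48.1%. Between the layers with LOXL2 3 members passed, 1 to 4 with a library left out, and 12 pathway genes, 2 to 17. Of all genes 16.1% were called there, and 7.92% to 32.9% with a library left out. Removing the span trend turned IGF1R to 0.0066 and IGFBP4 to -0.048 in MLC. IGFBP5 in MLC, at -0.0011, became 0.0053 without a filter, 0.0079 without the span trend, 0.0017 with all 12 libraries, 0.0062 with the replicate block and -0.10 to 0.056 with a library left out. With a library left out the layer difference with LOXL2 ran from -0.21 to 0.11 for IGF1R and -0.33 to 0.13 for IGF2R, and the interaction of IGFBP2 from -0.11 to 0.29. The cause was not tested.

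The replicate block called 0 members in SLC, 4 in MLC, 6 and 4 between the layers with IL-1β and with LOXL2 and 0 in the interaction, and 0, 19, 21, 15 and 0 pathway genes. Over all genes it called 4053 in MLC against 2958, 5816 between the layers with IL-1β against 6548, and 3887 with LOXL2 against 2268, so that IGFBP6 with LOXL2 was the 1 member whose call changed. Same-numbered libraries correlated at 0.030, -0.23 and 0.12 in SLC, 0.081, 0.11 and -0.052 in MLC and -0.047, -0.089 and -0.046 between the layers with IL-1β. There too the numbers were not shown to pair the libraries. Where at least 10 counts were asked of every library, IGF2 gave no value and PAPPA only the layer difference with IL-1β alone. At the depth of these libraries, the values of PAPPA and IGF2 are limited by counting.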
